A study of Mus musculus with 2 samples.

Results

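The genes described here encode the hormones of the anterior pituitary, and they were read in mononuclear cells prepared from mouse brain. They are *Gh*, *Prl*, *Pomc*, *Cga*, *Lhb*, *Tshb* and *Fshb*, together with *Pou1f1*, the transcription factor gene of pituitary lineages, and *Chgb*, which encodes a secretory granule protein of neurons and endocrine cells. The hormone genes were chosen by their signals on these same arrays, where several of them were far lower in CD47 knockout (KO) cells than in wild-type (WT) cells, so their Log2 ratios are given as a description and carry no test. Members were all probe sets to which the array annotation gives exactly 1 gene symbol, that symbol being 1 of the 9 listed. This gave 12 probe sets of 45101 on the array and 8 genes of 18193 named. *Pou1f1* is not analysed here on the arrays. A probe set is a group of short probes that match a transcript.

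The study set *Cd47*-null mice against WT mice to follow microglia that lack the signal between CD47 and SIRPα, its receptor. Whole brains were digested with collagenase, and the cells that gathered between a dense and a lighter layer of Percoll, a density medium, were taken as brain mononuclear cells. RNA of 7 WT males aged 10 to 15 weeks formed one pool and RNA of 6 CD47 KO males aged 12 to 16 weeks the other, and 20 ng of each was amplified and hybridised to 1 Affymetrix GeneChip Mouse Genome array. The sources used here do not give the strain of these mice, and no treatment is named for either group. With 1 array for each genotype, no difference below has a replicate check, a p-value or an error between animals, and genotype cannot be told apart from pool, age range or dissection.

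Signals are MAS5 values, a linear measure of brightness. The WT array had a median of 161 and the CD47 KO array one of 146, and a probe set is called expressed where its signal on an array was not below that array's median, for either array. The Log2 ratio is that of KO over WT, and a gene is read through its brightest probe set. Of 17 microglia markers named, 17 were expressed on both arrays, with *C1qb*, a complement gene, at 19785 and 20909 and the cathepsin gene *Ctss* at 17007 and 17825. *Cd47*, the gene knocked out, had signals of 5816 and 1688, and the sources used here do not say where its probes lie relative to the disrupted part. Labels give both pools as male, yet *Xist*, the RNA of X inactivation, had signals of 7070 and 6530. The Y-linked genes *Eif2s3y*, *Kdm5d* and *Uty* had 189, 162 and 48.9 in WT against 461, 307 and 101 in CD47 KO cells. The part of this in the hormone signals was not tested.

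The anterior pituitary lies below the brain, joined to the hypothalamus by a stalk, and is not brain tissue. Each of its endocrine cell types makes its own hormone. Somatotrophs make growth hormone (*Gh*), lactotrophs make prolactin (*Prl*), and corticotrophs make pro-opiomelanocortin (*Pomc*), which is cut into ACTH and which neurons of the arcuate nucleus make as well. Thyrotrophs and gonadotrophs share the glycoprotein α subunit (*Cga*) and join it to a β subunit of their own, which is *Tshb* for thyrotropin, *Lhb* for luteinizing hormone and *Fshb* for follicle-stimulating hormone. POU1F1 binds the promoters of *Gh*, *Prl* and *Tshb* and sets the fate of the cells that make them.

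The hormone genes with a promoter held here share the short motif TATAAA before their start sites. The choice of genes did not use these sequences, but the motif was picked after they were seen, so the likeness is a description only. RefSeq promoters (GRCm38.p6) were held for 8 of the 9 genes, 6 of them hormone genes, and none was held for *Gh*. The 150 bases upstream of the start site are shown for *Prl*, *Cga* and *Pomc*, hormones of different cell types, and for *Chgb* as the contrast. They lie at chr13:27057420-27057569 for *Prl*, chr4:34893629-34893778 for *Cga*, chr12:3954795-3954944 for *Pomc* and chr2:132781492-132781641 for *Chgb*, all on the plus strand and printed 5′ to 3′. Capitals mark TATAAA, the core of a TATA box, and TATNCAT, the core of the POU1F1 site, on either strand.
Prl: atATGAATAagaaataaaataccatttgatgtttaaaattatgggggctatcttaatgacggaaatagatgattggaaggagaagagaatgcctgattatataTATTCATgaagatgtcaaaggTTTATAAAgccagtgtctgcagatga
Cga: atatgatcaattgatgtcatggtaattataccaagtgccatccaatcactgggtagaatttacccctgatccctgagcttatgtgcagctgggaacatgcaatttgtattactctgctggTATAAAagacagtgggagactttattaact
Pomc: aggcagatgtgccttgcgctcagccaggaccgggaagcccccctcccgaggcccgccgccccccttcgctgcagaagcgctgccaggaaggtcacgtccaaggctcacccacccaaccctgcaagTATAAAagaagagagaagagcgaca
Chgb: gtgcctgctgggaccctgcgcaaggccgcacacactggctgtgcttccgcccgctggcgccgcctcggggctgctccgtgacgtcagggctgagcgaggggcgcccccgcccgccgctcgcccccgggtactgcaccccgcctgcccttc

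TATAAA was found within 250 bases upstream in 6 of 6 hormone genes with a promoter, and not in *Chgb*. *Pou1f1* held it in the window of its start site at chr16:65520512 and not in that of chr16:65523309. Of 32851 such windows of 27025 genes, 12.4% held it on either strand, and 1.99% held it on the gene's strand starting 20 to 40 bases upstream. It began 24 bases upstream in *Prl*, 25 in *Pomc*, 27 in *Tshb*, 30 in *Cga* and in *Fshb*, and 31 in *Lhb*. In *Prl* a copy on the opposite strand overlaps it, 26 bases upstream. TATNCAT was found in 1 of the 6 hormone genes, in *Prl*, at 47 bases upstream on the gene's strand and at 148 on the other. *Pou1f1* held it at 57 bases upstream of chr16:65520512 and not before its other start site, and 7.92% of all windows hold it on either strand. Both motifs were picked after the sequences were seen. A match describes these letters only, and a window without one says nothing about the factor.

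Growth hormone transcripts were bright in WT cells and far lower in CD47 KO cells on every probe set. *Gh* (chr11:106300261-106303703) is read by 4 probe sets. Probe set 1460613_x_at had a signal of 6782 in WT and 618 in CD47 KO cells. Probe set 1456595_x_at had 6635 and 476. Probe set 1460310_a_at had 4143 and 346, and 1437522_x_at had 4009 and 231. All 4 were above the 96th percentile of the WT array and spread from the 59.1 to the 77.7 percentile of the CD47 KO array, so the signal left in CD47 KO cells still lay above that array's median. The Log2 ratios were -3.46, -3.80, -3.58 and -4.12, with a mean of -3.74 ± 0.29 (SD over 4 probe sets, which are no replicates of the genotype). WT signals were 11 to 17.4 times those of CD47 KO cells. Of these IDs 3 end in _x_at, which marks probes that can also bind other transcripts, and the probe set without that mark, 1460310_a_at, lay within the range of the others.

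Prolactin was lower too but stayed among the bright genes on both arrays. *Prl* (chr13:27057570-27065204) had signals of 3956 and 1482 on its single probe set, 1429287_a_at, a Log2 ratio of -1.42 and a 2.67-fold difference. That is the 96.3 percentile of the WT array and the 89.5 percentile of the CD47 KO array. The relatives of *Prl* that the placenta makes were dim on both arrays. Of 17 named, 0 reached the median on either array, and the brightest, *Prl7a1* and *Prl7c1*, had 33.9 and 25.7 in WT and 16.0 and 16.2 in CD47 KO cells.

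*Pomc* (chr12:3954945-3960643) was lower on both of its probe sets, though by unequal amounts. The brighter one, 1455858_x_at, had signals of 906 and 190 and a Log2 ratio of -2.26. The dimmer one, 1433800_a_at, had 286 and 104 and a ratio of -1.46. Their mean was -1.86 ± 0.56 (SD over the probe sets). The dimmer probe set lay under the median of the CD47 KO array, at its 43.4 percentile, and the brighter one just above, at 55.1. Only the dimmer one is free of the _x_at mark.

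The shared α subunit gene was bright in WT cells and dim in CD47 KO cells. *Cga* (chr4:34893779-34907374) had 623 in WT cells, the 77.6 percentile, but 38.7 in CD47 KO cells, the 26.2 percentile. That is a 16.1-fold difference and a Log2 ratio of -4.01. It passed the signal threshold through the WT array alone, and a gene that passes this way has to be lower. With the 25th percentile of the signals added to both values the ratio was -3.09. The partner subunits were dim on both arrays. *Fshb* (chr2:107055986-107059651) had 91.8 and 6.91, *Lhb* (chr7:45417608-45421855) had 32.0 and 6.59, and *Tshb* (chr3:102777398-102789082) had 122 and 81.3. None of them reached either median, and their Log2 ratios of -3.73, -2.28 and -0.59 lie where ratios scatter widely. Of the 6511 named genes under the median on both arrays, 24.4% were more than 2-fold lower in CD47 KO cells, 11.1% more than 4-fold and 4.48% more than 8-fold, with an SD of 1.53. The β subunit values are thus given as signals. With signals under the 25th percentile of their array raised to it, *Fshb* had -1.37. Both signals of *Lhb* lie under those percentiles, so its -0.28 in that setting is the ratio of the percentiles and holds nothing of *Lhb*.

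*Chgb* (chr2:132781642-132795079), the gene set against the hormones, was somewhat higher in CD47 KO cells, by less than 2-fold. Its probe set 1415885_at had 5093 in WT and 6732 in CD47 KO preparations, a Log2 ratio of 0.40 and a 1.32-fold difference. It lay at the 97.4 percentile of the WT array and the 98.1 percentile of the CD47 KO array. Ratios of the brightest probe sets of a gene differed with an SD of 0.38 at such signals. The ratio of *Chgb*, read on a single probe set, is close to that spread. Signals of different probe sets rank brightness and not transcript amounts.

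**Figure D1:**
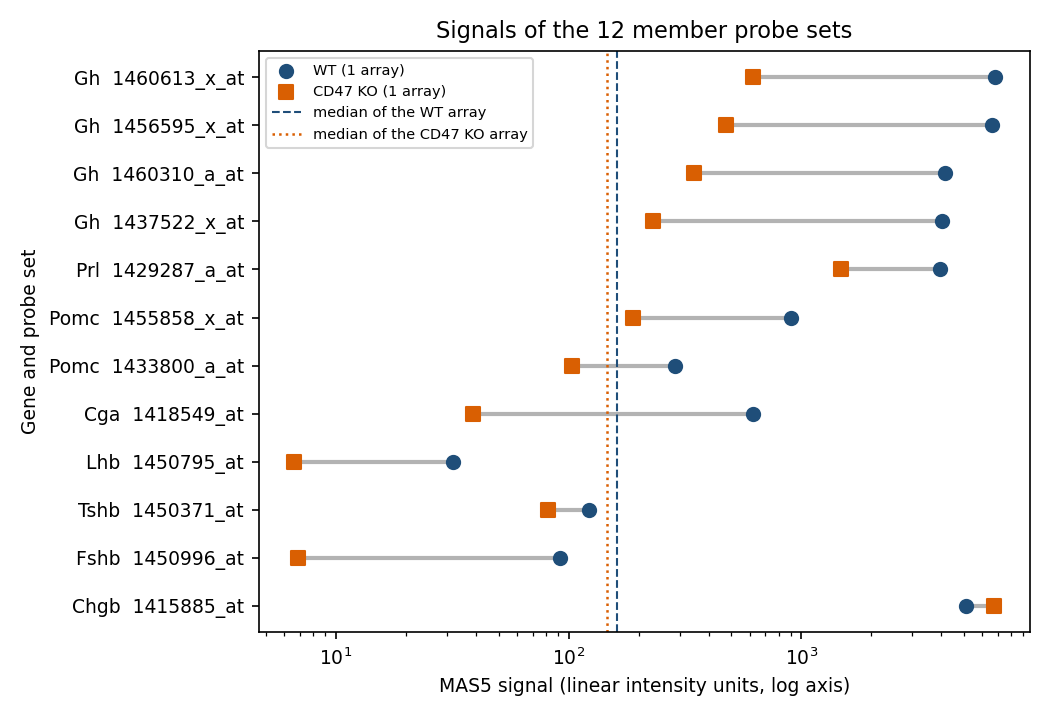
MAS5 signal (linear intensity units, log axis) of the 12 probe sets in WT cells (circles) and CD47 KO cells (squares), 1 array for each, with lines at the median of each array (161 and 146). The 11 hormone probe sets have the square to the left of the circle, *Chgb* to the right, and the 4 *Gh* probe sets run from 4009 to 6782 down to 231 to 618.

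Taken as a group, the 7 hormone genes were lower in 7 of 7 cases, with a median Log2 ratio of -2.28 against -0.03 over the 18193 named genes. That median is the ratio of the dim *Lhb*. Over the 4 expressed hormone genes the median was -2.86, and over the 3 expressed on both arrays it was -2.26. Without a signal threshold, 6 of the 7 were more than 2-fold lower, where 12.2% of all named genes were. *Fshb* and *Lhb*, which lie under both medians, were more than 4-fold lower, as were 11.1% of all genes under both medians. Of the 5 member genes that were expressed, *Chgb* included, 4 were more than 2-fold lower, beside 5.41% of the 11682 expressed genes, and 3 were more than 4-fold lower, beside 0.796%. Among genes with a WT signal at or above the 75th percentile, 2.23% were more than 2-fold lower. As the hormone genes were selected on this contrast, these shares give the scale of the difference and nothing further is read from them. Of the 11 hormone probe sets, 7 reached the 75th percentile of the WT array and 2, those of *Prl* and *Gh* (1460613_x_at), that of the CD47 KO array. In bulk RNA, fewer cells of a type and less RNA per cell cannot be told apart.

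**Figure D2:**
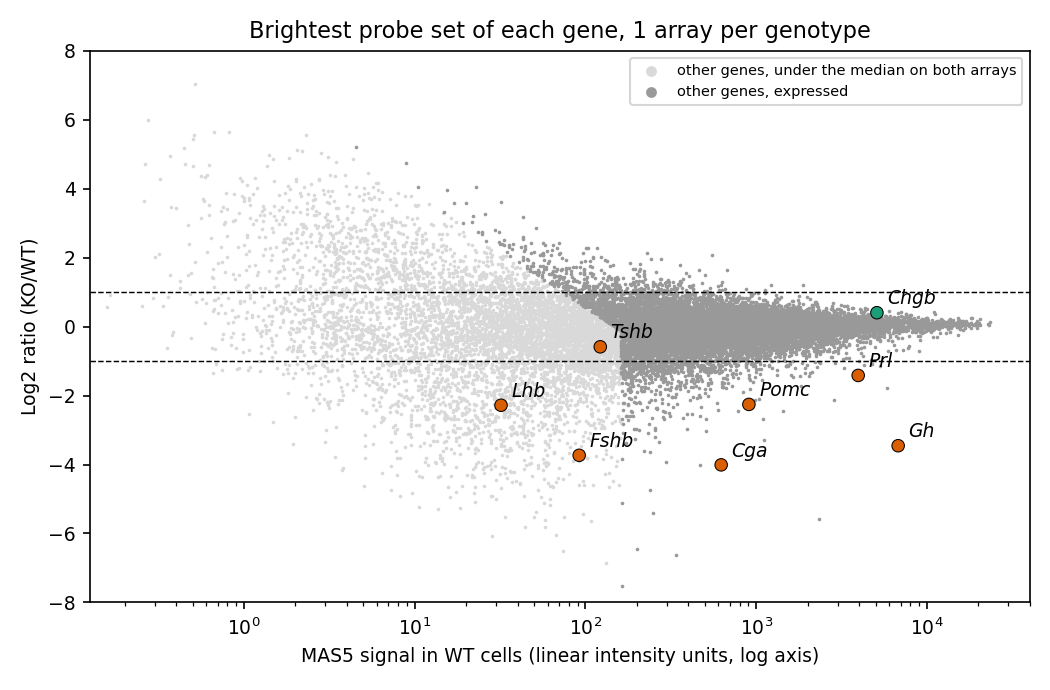
Log2 ratio (KO/WT) of the brightest probe set of each gene against its MAS5 signal in WT cells (linear intensity units, log axis), with dashed lines at 2-fold. *Gh*, *Prl*, *Pomc* and *Cga* lie under the bulk of genes of like WT signal, *Lhb*, *Fshb* and *Tshb* lie in the wide scatter at low signal, and *Chgb* lies at 0.40.

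The genes nearest to the hormones in Log2 ratio included some that were not lower on all of their probe sets. The 8 genes outside the members with the Log2 ratio nearest to -2.28, among those at or above the 75th percentile in WT cells, were *2010001A14Rik*, *Rad18*, *Slc35a5*, *Trim62*, *Tgfb2*, *Gga2*, *Bpifb3* and *Rpp25*, between -1.89 and -2.46. Of these, *Gga2*, *Bpifb3* and *Rpp25* have a single named probe set. The value of -2.28 that set this choice is the median of the hormone genes and the ratio of the dim *Lhb*. The DNA repair gene *Rad18* had -2.14 on its brightest probe set and 0.54 to 1.78 on its 3 others, and the transporter family gene *Slc35a5* had -2.14 against -0.50 to 2.39 on 4 others. Only *Trim62* and *Tgfb2*, a TGF-β family cytokine gene, were lower on every other probe set, at -0.85 and -0.17 and at -1.61 to -0.29. The likeness is of 1 ratio between 2 arrays and says nothing of shared function.

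Other genes of pituitary cells were mostly dim, and the expressed ones differed in both directions. Of 18 pituitary transcription factor genes named, 7 were expressed, with 4 higher and 3 lower, a median of 0.08 and summed signals over the named genes of 12451 in WT and 11689 in CD47 KO cells. *Egr1*, an immediate early gene that many cells use, had 8172 and 8750 (0.10). It makes up most of both sums, which thus say little of the other factors. *Zbtb20*, a factor of pituitary and brain, had 1452 and 825 (-0.82). *Otx2*, with 940 and 521 (-0.85), is also counted among the choroid plexus genes below. Past 2-fold were *Gata2*, a factor of thyrotrophs and gonadotrophs, with 319 and 142 (-1.17), and *Lhx4*, a factor of the early pituitary, with 31.8 and 167 (2.39). *Gata2* passed the signal threshold through the WT array alone and *Lhx4* through the CD47 KO array alone, which sets their direction. Of the 4 factors expressed on both arrays, 2 were higher and 2 lower. Of the 11 under both medians, 8 were lower and 3 higher, with ratios from -3.22 to 3.66. The median of this list changed sign with the threshold, to -0.51 with none and -0.37 with the 75th percentile.

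Receptors through which the hypothalamus governs the pituitary gave a similar mixture. Of 16 named, 9 were expressed, with 5 higher, 4 lower and a median of 0.12. The glucocorticoid receptor gene *Nr3c1*, active in nearly all cells, had 2931 and 2241 (-0.39), and *Adcyap1r1*, the PACAP receptor gene, had 1052 and 1033 (-0.03). *Crhr1*, the receptor of corticotropin-releasing hormone, had 294 and 146 (-1.02, under 2-fold after each of the 3 normalizations), while the estrogen receptor gene *Esr1* had 76.6 and 240 (1.65) and the somatostatin receptor gene *Sstr3* had 220 and 605 (1.46). *Crhr1* passed the signal threshold through the WT array alone and *Esr1* through the CD47 KO array alone. Of the 5 expressed on both arrays, 3 were higher and 2 lower. Of the 7 under both medians, 5 were lower and 2 higher, with ratios from -3.09 to 1.03. Among these 7 are the receptors of the other releasing hormones, picked out after their values were seen, *Ghrhr* for growth hormone (69.9 and 16.2), *Trhr* for thyrotropin (114 and 35.3) and *Gnrhr* for the gonadotropins (3.79 and 7.74).

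Genes of hormone storage were near even between the genotypes. Of 19 dense-core granule genes named, 18 were expressed, all within 2-fold, with 13 higher, 5 lower and a median of 0.14, or 16 higher and 2 lower when the arrays were centred on the same median. *Cpe*, which encodes the carboxypeptidase that trims prohormones, had 8315 and 9504 (0.19), and the list ran from -0.27 to 0.64. Summed signals were 35210 in WT and 39962 in CD47 KO cells. Counts, median and sums include *Peg3*, a zinc finger factor gene and no granule gene, with 4656 and 5005 (0.10). Neurons use the same genes, and the 24 neuronal markers, all expressed on both arrays, had a median of 0.06 with 16 higher and 8 lower, or 15 and 9 after quantile normalization or loess. The synaptic genes *Snap25* and *Syp* had 17563 and 17607 and 8461 and 9658, and the sums of the list were 77426 and 82332. *Chgb* is itself a member of the granule list. The neuronal list, which does not hold it, ran from -0.49 to 0.91.

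Expressed genes in a list of neuropeptides of the hypothalamus, the brain region nearest to the gland, were higher where the hormone genes were lower. The list is not limited to genes made in that region alone, and the part of the hypothalamus in these signals was not tested. Of 17 named, 12 were expressed and 12 of 12 were higher in CD47 KO cells, with a median of 0.51 and a range of 0.08 to 1.13, and of the 5 under both medians 3 were lower. *Gal* and *Vip* passed the threshold through the CD47 KO array alone. Of the 10 expressed on both arrays 10 were higher, with a median of 0.43. The count of 12 stayed after centring, quantile normalization and loess. *Sst*, encoding somatostatin, which restrains growth hormone release, had 2897 and 3063 (0.08). *Penk*, the enkephalin precursor gene, had 1830 and 2425 (0.41), and *Gal*, the galanin gene, had 98.3 and 215 (1.13). Over all 17 the median was 0.46, and under the 11 alternative settings that of the expressed ones lay between 0.38 and 0.65. *Pomc*, which arcuate neurons of this region also make, was at -2.26.

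Among genes that answer to the hormones, 6 of 13 named were expressed, 3 higher and 3 lower, with a median of 0.12. Of the 7 under both medians, 6 were higher and 1 lower, with ratios from -3.43 to 1.61. Over all 13 the median was 0.48. *Cish*, with 111 and 190, passed the threshold through the CD47 KO array alone. Of the 4 expressed on both arrays, 2 were higher and 2 lower. *Igf1*, which growth hormone induces in liver and which microglia also make, had 278 and 1088 (1.97). *Igfbp3*, a binding protein gene for IGF-1, had 220 and 106 (-1.06, again under 2-fold after each normalization) and passed the threshold through the WT array alone, and *Socs3*, a feedback inhibitor gene of cytokine receptors, had 1467 and 1744 (0.25).

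Markers of tissues in or against the brain were lower as well, in part. Of 16 meningeal and fibroblast genes, 15 were expressed, 13 of them on both arrays, of which 11 were lower. Of the 15, 13 were lower and 5 more than 2-fold (3 after centring), with a median of -0.93 and sums of 14404 in WT and 9635 in CD47 KO cells. *Aldh1a2*, a retinoic acid synthesis gene of the meninges, had 628 and 185 (-1.77), *Ogn*, a matrix proteoglycan gene, had 522 and 162 (-1.68), *Slc6a13* had -1.17, *Col1a2* -1.11 and *Serping1* -1.09. The brightest, *Mgp* and *Igf2*, had -0.30 and -0.52. The 11 choroid plexus genes were expressed on both arrays and had a median of -0.38, 9 lower and none past 2-fold, with *Ttr* at 23088 and 23613 (0.03), *Calml4* at 3908 and 2995 (-0.38) and sums of 40702 and 36875. *Ttr* makes up most of both sums, which thus say little of the other genes. Of 13 genes of nasal epithelium, 6 were expressed and 6 of 6 were lower, 4 of them more than 2-fold, with a median of -3.03 and sums of 5246 and 1347. *Bpifa1*, a secreted airway protein gene, had 2341 and 48.9 (-5.58), *Cyp2g1* had 469 and 29.2 (-4.00), the mucin gene *Muc5b* 220 and 18.2 (-3.60), *Bpifb3* 787 and 143 (-2.46) and *Ltf* 859 and 746 (-0.20). Of these 6, *Ltf*, the lactoferrin gene, which neutrophils also make, was expressed on both arrays. The other 5 passed the signal threshold through the WT array alone, which sets their direction. *Omp*, which marks olfactory neurons, had 121 and 80.8. No gene of these lists was at 0. The part of any of these tissues in the hormone signals was not tested.

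**Figure D3:**
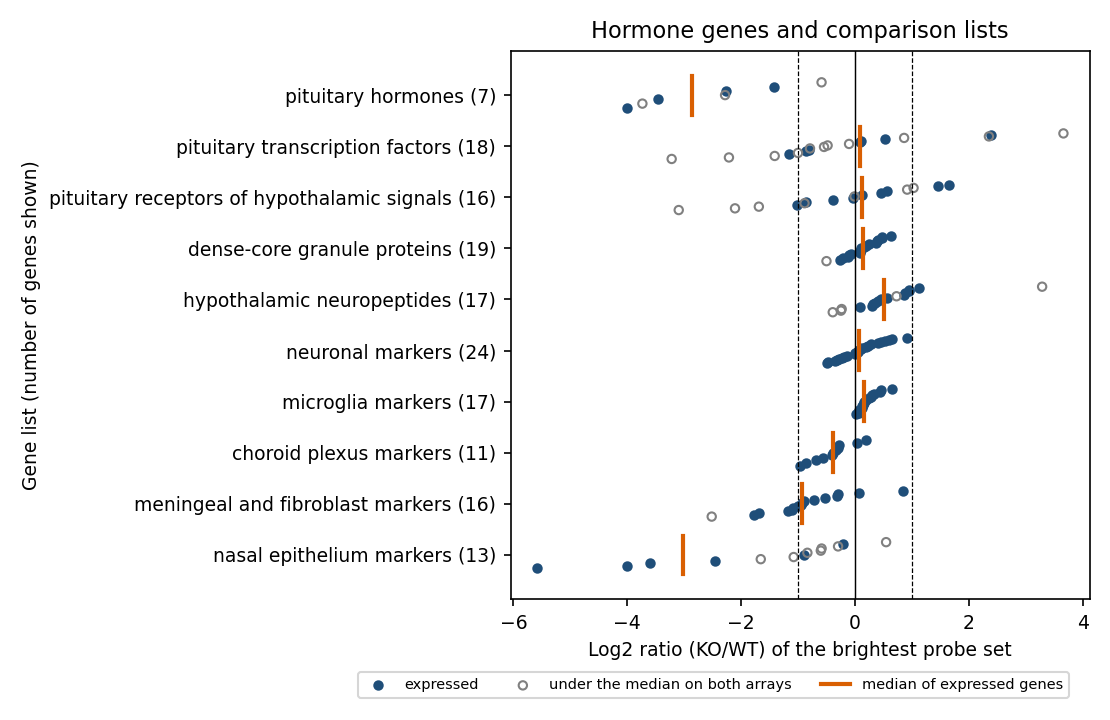
Log2 ratio (KO/WT) of the brightest probe set of each gene in 10 lists (numbers of genes in parentheses), with filled points for expressed genes, open points for genes under the median on both arrays, a bar at the median of the expressed genes and dashed lines at 2-fold. The hormone genes lie between -4.01 and -0.59 and the nasal genes reach -5.58, while granule, neuronal and microglia genes lie near 0 and expressed neuropeptide genes lie above it.

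The direction of the hormone genes was the same under 11 alternative ways of treating the signals, apart from *Lhb*, for which 1 setting replaces both signals and gives no direction. Much of this was fixed in advance. A changed signal threshold cannot move the ratio of a gene, and an added constant cannot change its sign. A changed choice of probe set can move only *Gh* and *Pomc*, as the other hormone genes have a single probe set. *Gh* stayed between -3.74 and -3.32, *Prl* between -1.45 and -1.28, *Cga* between -4.01 and -3.09 and *Pomc* between -2.26 and -1.46, and *Chgb* stayed between 0.34 and 0.54. *Tshb* stayed between -0.59 and -0.40. The ratio of *Fshb* depended on how low signals were treated.

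**Figure D4:**
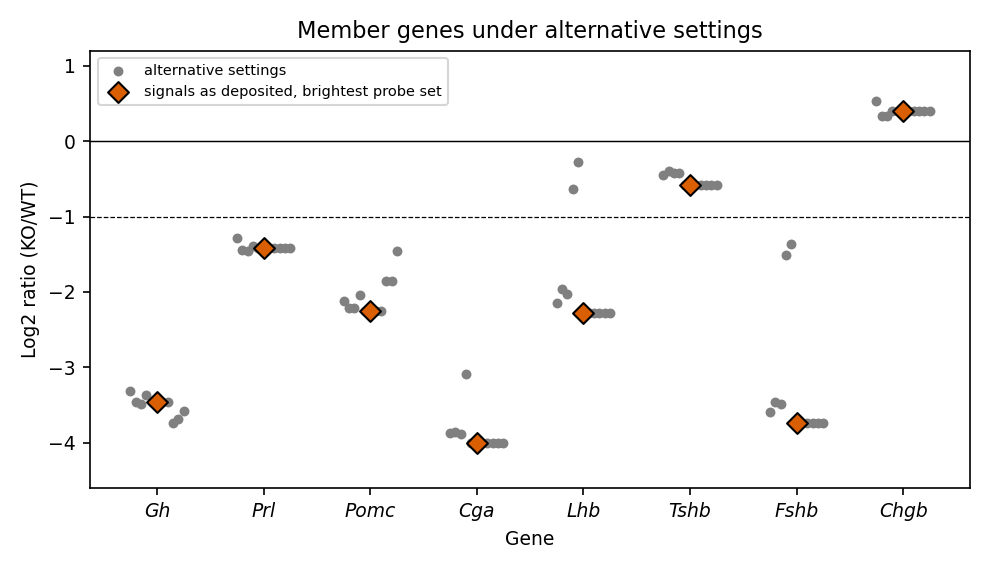
Log2 ratio (KO/WT) of each measured member gene from the signals as deposited (diamonds) and under the 11 alternative settings (points), with a dashed line at 2-fold lower. *Gh*, *Prl* and *Chgb* hardly move, and *Fshb* rises to -1.37 where low signals are raised, and the *Lhb* point at -0.28 is the ratio of the values that replace both of its signals.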

How the data were processed

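RNA of brain mononuclear cells, pooled by genotype, was read on 1 array for each of WT and CD47 KO. The deposited values are intensities, MAS5 signals that the authors obtained with the Expression Console Software (version not given in the sources used here). Both arrays had a trimmed mean of 500.002 after 2% was removed at each end, and 9 hybridization controls had Log2 ratios of -0.01 to 0.15. Of 45101 probe sets, 64 were controls, 34945 had exactly 1 symbol in the platform annotation, 932 had several and 9160 had no name here. Of the named ones, 34741 matched the RefSeq gene table of GRCm38.p6, the source of coordinates and promoters, and the values were not mapped to a genome.

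Log2 ratios were taken without an offset. Each gene took the value of its brightest probe set by mean signal. With 1 array per genotype there was no test, and the number of arrays limits the precision. The SDs given for *Gh* and *Pomc* are over all probe sets of the gene. The spread against which *Chgb* and the alternatives are set is another value. It is the SD, over genes of like signal, of the difference between the 2 brightest probe sets of a gene. Medians of lists took the value of the brightest genes, 0.38. Members, lists and named genes were chosen with earlier results of these data known. Named genes were the members, the genes of each list past 2-fold (at most 6) and its 2 brightest, the 8 nearest in Log2 ratio, and *Cd47*. *Omp*, *Vip*, *Ghrhr*, *Trhr*, *Gnrhr*, *Otx2*, *Cish* and the label checks lie outside that rule, having been picked once their values were known. The 11 alternatives changed normalization (centring, quantile, loess with a fraction of 0.4), low signals, the signal threshold or the probe set. Calculations were tested on simulated data. Python 3.11.15, numpy 2.4.6, pandas 2.3.3, statsmodels 0.14.6 and matplotlib 3.10.9 were used.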

Additional observations from a re-analysis of the deposited data

How the results depend on the processing

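Of 239 values computed under the alternatives, 226 moved by less than the spread between probe sets of a gene, or, for counts, by no more than 1.5 times, and 13 moved by more. Some could not move, such as the ratio of a gene with a single probe set where only the threshold or the probe set changed. Of the ratios past 2-fold as deposited, 0 changed sign. Medians near 0 did so for transcription factors, for receptors of hypothalamic signals and for hormone receptors and response genes. With the 25th percentile added to both signals the median of the hormone genes was -1.51, and so was *Fshb*. With low signals raised to that percentile the median was -1.42 and *Fshb* was -1.37. With no signal threshold the count of member genes more than 4-fold lower rose from 3 to 5 through the dim *Fshb* and *Lhb*. Of all genes under both medians, 11.1% were that much lower. Without probe sets whose ID ends in _x_at or _s_at *Pomc* was -1.46. The nasal epithelium median moved to between -2.55 and -0.89 in 4 settings, and that of the transcription factors in 3. The count of members more than 2-fold lower ran from 3, with the median required on both arrays, to 6, and that of members more than 4-fold lower from 2 to 5. Raising low signals replaces both *Lhb* signals, so that value says nothing of the gene.

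Over all expressed genes 632 were more than 2-fold lower and 412 higher. Centring on the median moved the median of all genes from 0.00 to 0.14 and these counts to 467 and 575. They were 526 and 505 after quantile normalization, 537 and 499 after loess, 425 and 282 with the constant, 143 and 95 at the 75th percentile, 249 and 132 with the median on both arrays, and 2221 and 1489 with no threshold. No paired analysis was possible because each genotype has 1 array. Lists with fewer than 3 expressed genes were not followed over all alternatives. Signal over background could not be measured beyond the array percentiles, and detection calls were not used here.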

Other observations

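Hormone genes of other glands were mostly dim on both arrays. Of 6 thyroid and adrenal hormone genes named, 2 were expressed, the steroid synthesis gene *Cyp11a1* with signals of 319 in WT and 564 in CD47 KO cells and the cholesterol transport gene *Star* with 414 and 327. Of 11 gut and islet hormone genes, 2 were expressed, *Cck*, which cortical neurons also make, with 474 and 667 and the insulin gene *Ins2* with 177 and 82.3, a Log2 ratio (KO/WT) of -1.11 that was under 2-fold after each of the 3 normalizations. *Ins2* passed the threshold through the WT array alone. The 9 others had 3 lower and 6 higher. The pineal gland is another endocrine gland at the brain surface, and 0 of its 7 named markers reached an array median. *Aanat*, which encodes the enzyme of melatonin rhythm, had 90.6 and 45.2, and *Gnat2* had 49.5 and 95.5.

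Erythroid genes were higher in CD47 KO cells in 3 of 3 expressed, also after each normalization, with *Alas2*, the heme synthesis gene, at 1401 and 1879 and *Slc4a1*, the band 3 gene, at 785 and 1122.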
